A study of Mus musculus with 13 samples.

Results

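Proprioceptive sensory neurons (pSNs) of the mouse dorsal root ganglion (DRG) were compared between the embryonic stage E14.5 and the day of birth (P0). The E14.5 group was the 129 neurons that the authors' deposited annotation placed in E14.5 clusters 1 and 2, of the 169 neurons kept at that stage. The P0 group was the 47 neurons of P0 clusters 1 and 2, of 55 kept. Together they were 176 of the 586 neurons kept over the 4 stages of the series, from 1248 sorted wells. The E14.5 clusters 3 and 4 (34 and 6 neurons) and P0 cluster 3 (8 neurons) were left out.

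The E14.5 neurons came from TrkC:tdTomato embryos, in which a red fluorescent protein marks cells that express the neurotrophin receptor gene *Ntrk3* (TrkC). The P0 neurons came from PV:Cre+/-;Rx3:Flp+/-;Ai65+/- pups, in which tdTomato appears only in cells that have expressed both the *PV* (*Pvalb*) driven Cre and the *Rx3* (*Runx3*) driven Flp recombinase. The labels give 2 animals for E14.5 and 6 for P0, of either sex, and do not say which animals supplied which plate. Viable tdTomato neurons were sorted into 2 plates of 96 wells at each stage, through a narrower nozzle at E14.5. Stage and reporter line changed together and cannot be told apart, so every difference below is between these 2 groups of sorted neurons. The reporters also select on *Ntrk3* at E14.5 and on *Pvalb* and *Runx3* at P0, and the study named the E14.5 clusters from genes that include *Etv1*, *Pvalb* and *Maf*. The levels of those genes are not independent of how the neurons were chosen. The plates are the replicates here. Since they may share animals, the p-values measure the spread between plates, which may be technical.

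Proprioceptors carry signals of muscle length and force from muscle spindles and Golgi tendon organs to the spinal cord. They are specified early in the embryo by transcription factors such as *Runx3*, depend on the neurotrophin NT3 acting through TrkC, and induce the ETS factor *Etv1* as their axons reach muscle. Around E14.5 their axons are growing into muscle and spinal cord, and by birth they have formed central synapses and contacted developing receptors, while fast conduction and mature firing are reached later.

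A neuron gave 12155 and 9042 UMIs (unique molecular identifiers, counted cDNA molecules) on average on the E14.5 plates and 45414 and 41344 on the P0 plates, with medians of 3900, 3254, 7261 and 6852 genes. When every neuron was thinned to 4000 UMIs the medians were 1995, 1983, 2015 and 2001.5 genes, so the gap in detected genes went with depth. The neurons of each plate summed to 668500, 669073, 1226180 and 826883 UMIs. Levels are given in UPM, the UMIs of a gene scaled to a total of 1000000 UMIs for a plate's neurons, in the order E14.5 replicates 1 and 2, then P0 replicates 1 and 2. A level is thus a share of a neuron's RNA, not an amount. The log2 levels of 8255 genes correlated across genes with r = 0.962 between the E14.5 plates, 0.974 between the P0 plates and 0.759 to 0.785 across stages. The same 96 well barcodes served every plate, so 45 barcodes held member neurons on both E14.5 plates, 4 on both P0 plates and 8 to 24 on a plate of each stage.

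A feature whose share was highest on the E14.5 plates has to be read beside every gene that fell. A set of 140 genes stood higher in adult replicates 1 and 2 than in adult replicates 3 to 5. Their spread between adult plates was over 3-fold, with 20 UPM added to each level. In these genes the E14.5 plates carried 7.38% and 7.51% of the UMIs of their neurons. That share was 5.77% and 6.59% on adult replicates 1 and 2, but 1.58% and 1.26% at P0, 1.14% to 2.13% at P12 and 1.16% to 1.26% on adult replicates 3 to 5. The share followed the well barcode. Barcodes were scored in the wells of adult replicates 1 and 2, where the scores of 90 barcodes correlated with r = 0.837. The share in an E14.5 neuron went with the score of its barcode (r = 0.869 over 55 neurons and 0.843 over 74 neurons), as it did at a lower level at P0 (0.828 over 27 and 0.522 over 20) and on the 4 P12 plates (0.702 to 0.830 over 12 to 67 neurons). On adult replicates 3 to 5 r was 0.0859 to 0.285 over 20 to 43 neurons. Neurons of one plate share a library and are not independent. In the 32 lowest, middle and highest barcodes the share was 4.56%, 7.82% and 10.1% on E14.5 replicate 1 and 4.22%, 7.42% and 10.1% on replicate 2. In the lowest barcodes at P0 it was 1.28% and 1.06%. A gap between the stages thus remains in the lowest 32 barcodes, and passing the test there does not separate a gene from this feature. Of the 8386 genes tested between stages, 366 (4.36%) were over 1.5-fold higher in the highest than in the lowest 32 barcodes on both E14.5 plates. These are called barcode genes below, and where one is described as changed it comes with the difference among neurons of the lowest 32 barcodes alone beside the main value. The part of this feature in the stage difference was not tested.

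**Figure D1:**
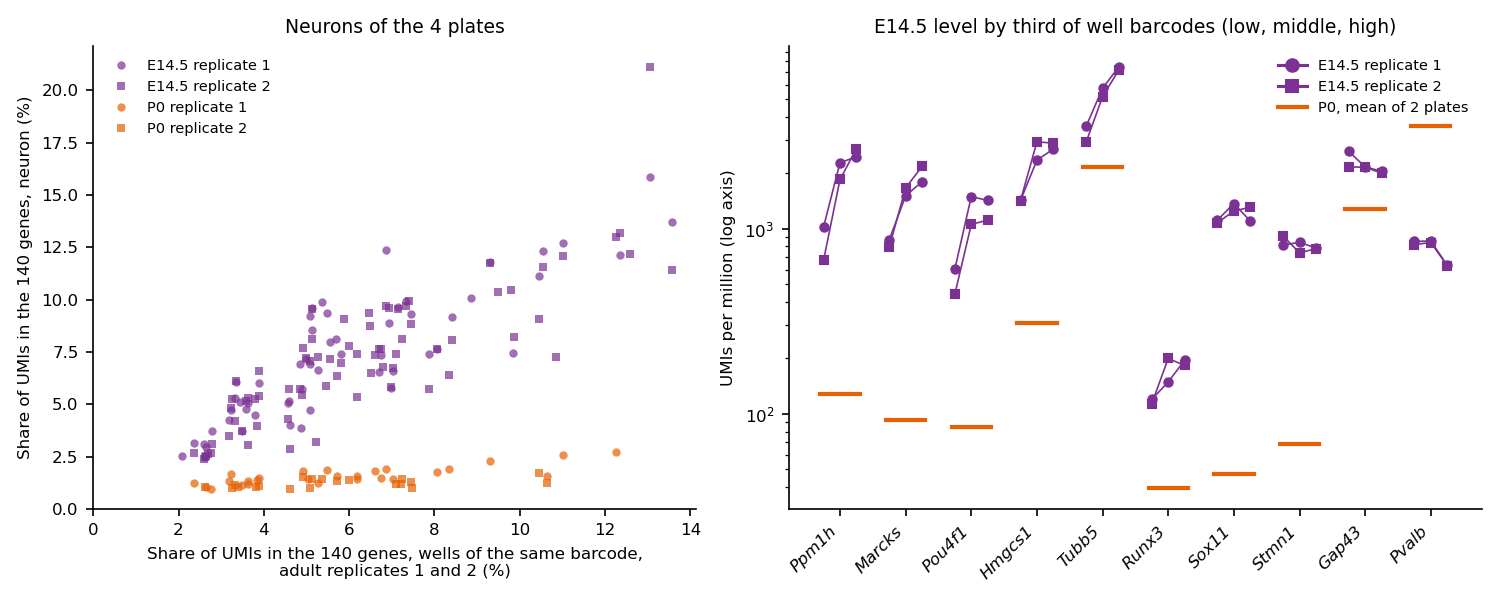
Left, share of a neuron's UMIs in the 140 genes (%) against the share in the adult wells of the same barcode (%), for the 4 plates. Right, E14.5 level in UPM (log axis) in neurons of the lowest, middle and highest 32 barcodes on each plate, with the P0 mean of 2 plates as an orange bar. *Marcks* and *Ppm1h* rise with the barcode at E14.5 and still lie above P0 in the lowest barcodes, whereas *Sox11*, *Stmn1* and *Gap43* do not rise with the barcode on both plates.

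Between the stages, 4141 of the 8386 genes tested passed an adjusted p under 0.05 (49.4%), by edgeR's quasi-likelihood test with Benjamini-Hochberg adjustment. Of these, 1966 (23.4%) were higher at P0 and 2175 (25.9%) lower. For a change tested to be over 2-fold, 482 genes (5.75%) were higher and 1011 (12.1%) lower. The median log2 difference of all genes, P0 minus E14.5, was 0.0051 and the median fold of the called genes 2.59. With so many calls, the counts in each gene group below are to be read against these shares. Without each plate in turn, 1104 calls held (508 higher, 596 lower). A named call held without each plate unless its loss or a plate is given beside it.

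The calls in the 2 directions differed in kind. Of the 2175 genes lower at P0, 665 were annotated pseudogenes, of 846 tested, and 13 pseudogenes were higher. Pseudogenes held 9.10% and 9.91% of UMIs on the E14.5 plates, 4.18% and 5.01% at P0 and 2.06% to 3.88% at P12 and in the adult. Among the 6909 protein-coding genes alone, 1841 (26.6%) were higher at P0 and 1248 (18.1%) lower. The barcode genes made up 226 of the falls and 27 of the rises. Reads from gene families with many pseudogenes, such as those for ribosomal proteins, may be split among copies, so their levels are uncertain.

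The strongest rises were led by *Lynx1*, *Tnni1* and *Hspb1*. By the rule for named genes, they are the 15 largest rises among called genes of at least 100 UPM at the higher stage. The rule also asked that the call held without each plate in turn and that the stages did not overlap. There were 369 such genes, with predicted genes skipped. Of the 4141 called genes 4133 did not overlap, and of the 8386 tested 6257 did not. *Lynx1*, a membrane-anchored modulator of nicotinic acetylcholine receptors, had 1 UMI in all at E14.5 and 161 and 197 UPM at P0, a ratio of 235 (95% interval 42.0 to 9315, counting error alone). *Tnni1*, the slow muscle isoform of troponin I, had 0 and 5.98 UPM at E14.5 and 258 and 212 at P0, a difference of 6.17 ± 0.41 (SE, adjusted p = 2.07e-10) on the log2 scale. By that rule neither gene overlapped between stages. *Hspb1*, a small heat shock protein, had 3 UMIs in all at E14.5 and 99.5 and 139 UPM at P0, a ratio of 51.5 (95% interval 17.4 to 251, counting error alone), and its level spread over 4-fold between adult plates. *Vsnl1*, a neuronal calcium sensor, rose from 22.4 and 20.9 to 750.3 and 717 UPM, by 5.0 ± 0.19 (SE, adjusted p = 1.66e-13). *Vamp1*, the synaptobrevin of fast synapses, rose from 2.99 and 5.98 to 133 and 164 UPM, by 4.93 ± 0.37 (SE, adjusted p = 1.17e-09). For all 5 genes both P0 plates lay far above both E14.5 plates.

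*Nefh*, the heavy neurofilament of large axons, was at 34.4 and 38.9 UPM at E14.5 and 749 and 883 at P0, a rise of 4.40 ± 0.19 (SE, adjusted p = 4.47e-13). *S100b*, a calcium-binding protein that glia also express, rose from 15.0 and 19.4 to 247 and 422 UPM, by 4.19 ± 0.31. The P0 plates were less alike for *S100b* than for the other genes, but did not approach the E14.5 plates. Other rises were *Rassf4* (4.54), *Hsbp1l1* (4.20), *A2ml1* (4.05), *Clec2l* (3.90), the aldolase gene *Aldoc* (3.89), the β-synuclein gene *Sncb* (3.88) and *Nrip3* (3.87). None of the 15 was a barcode gene. With 10 UPM added before that ratio, a gene near 0 at E14.5 can hardly be one, so this says little. *Vsnl1* went the other way at E14.5, with 20.6 and 41.2 UPM in the lowest 32 barcodes and 4.62 and 7.74 in the highest. Each of the 15 passed the test also among neurons of the lowest 32 barcodes.

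The strongest falls were led by *Crip1*, a small LIM domain protein, and *Sox11*, a SoxC factor of immature neurons. *Crip1* fell from 241 and 224 UPM to 5.71 and 3.63, a difference of −5.61 ± 0.29 (SE, adjusted p = 7.20e-12). *Sox11* was at 1186 and 1218 UPM at E14.5 and at 44.0 and 50.8 at P0, a difference of −4.74 ± 0.16 (SE, adjusted p = 3.25e-14). For both, the E14.5 plates were close to each other and lay far above the P0 plates. *Zfp57*, a zinc finger protein that maintains genomic imprints, fell from 154 and 170.4 to 9.79 and 9.67 UPM (−4.11 ± 0.27), and the imprinted cell cycle inhibitor gene *Cdkn1c* from 136 and 88.2 to 8.16 and 7.26 (−3.89 ± 0.33). *Itpripl1* fell from 89.8 and 127 to 8.16 and 2.42 UPM (−4.26 ± 0.37).

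Of the 15 falls, 6 were barcode genes. *Marcks*, a kinase substrate that binds actin and membranes, was at 1366 and 1602 UPM at E14.5 and 102 and 83.4 at P0, a difference of −4.05 ± 0.15, and of −3.57 (adjusted p = 3.46e-08) in the lowest 32 barcodes. *Ppm1h*, a protein phosphatase, was at 1871 and 1832 UPM at E14.5 and 134 and 121 at P0, a difference of −3.92 ± 0.14 and in the lowest barcodes of −3.32. The others were *Twf1* (−4.47, lowest barcodes −3.73), *Skil* (−4.03, −1.89), *Mcmbp* (−4.02, −3.36) and *Csrnp2* (−3.95, −3.07). All 6 passed the test in those barcodes, with smaller differences, and the change was most marked for *Skil*. The barcode feature still differed between the stages in that subset. *Pfkfb2*, *Wapl* and *Zfp317* fell by 3.83, 3.83 and 3.80. Their levels stood higher in adult replicates 1 and 2 than in adult replicates 3 to 5 and, with 20 UPM added, spread over 3-fold between adult plates. They are thus among the 140 genes of the barcode feature, though not barcode genes by the rule above. *Rpl28* fell by 3.84 but belongs to a family with many pseudogenes.

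**Figure D2:**
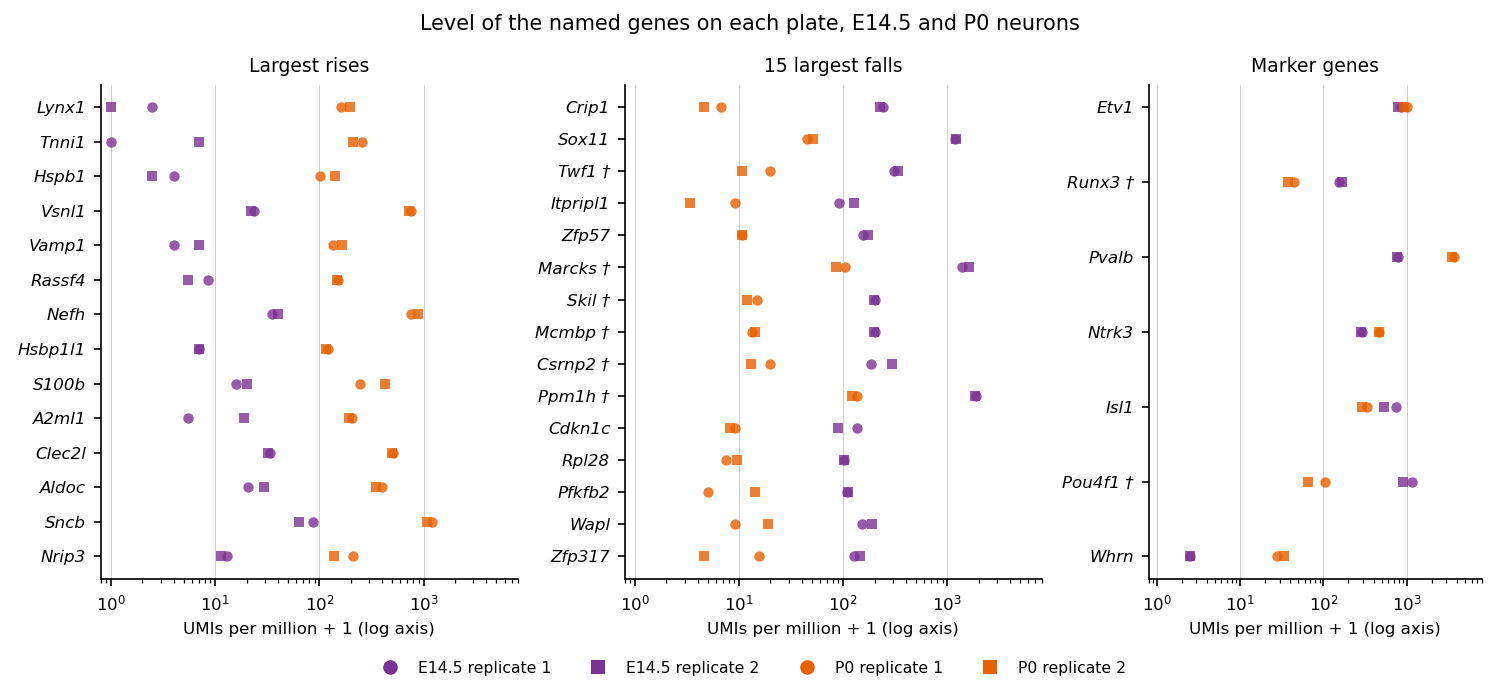
Level of each named gene in UPM plus 1 (log axis) on each of the 4 plates, for genes of the largest rises, the 15 largest falls and 7 genes of the proprioceptor identity list. A dagger marks barcode genes. The rises and falls shown were chosen among genes whose stages do not overlap. Plates of one stage lie well apart for some genes (*A2ml1* at E14.5, *Itpripl1*, *Pfkfb2* and *Zfp317* at P0), while *Etv1* lies at 788 to 1005 UPM on all 4 plates.

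The genes of the proprioceptor identity list did not move as a block: 4 of the 12 genes tested were called higher at P0 and 5 lower (3 and 3 of these kept without each plate in turn). The list also holds *Isl1* and *Pou4f1*, broader factors of sensory neurons, and both were called lower. *Etv1* is an ETS factor needed for the connections of proprioceptors with motor neurons. It was at 853 and 788 UPM at E14.5 and 1005 and 919 at P0. The P0 plates were higher, but by 0.16 ± 0.12, which did not pass the test (adjusted p = 0.263). Every one of the 176 neurons held an *Etv1* UMI. *Pvalb*, the calcium buffer parvalbumin, was at 782 and 753 UPM at E14.5 and 3695 and 3477 at P0, a rise of 2.16 ± 0.12 (SE, adjusted p = 1.26e-11). Its share of neurons with a UMI was 92.7% and 95.9% at E14.5 and 100% on both P0 plates. After thinning to 4000 UMIs a neuron it was 83.6% and 82.4% against 100%.

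*Runx3* went the other way. It was at 153 and 167 UPM at E14.5 and 43.2 and 36.3 at P0, a difference of −2.06 ± 0.22 (SE, adjusted p = 1.63e-07). It is a barcode gene (1.58-fold and 1.56-fold between the highest and lowest barcodes), and in the lowest 32 barcodes the difference was −1.67 (adjusted p = 0.00158). The share of neurons with a UMI was 69.1% and 71.6% at E14.5 and 81.5% and 75% at P0, but 38.2% and 45.9% against 7.41% and 5% after thinning. The unthinned shares set shallow E14.5 neurons against deeper P0 neurons. The P0 animals carry the Flp cassette just after the *Runx3* stop codon, and its part in the level was not tested.

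Among the other identity genes, *Ntrk3*, the NT3 receptor gene, had 290.2 and 279 UPM at E14.5 and 461 and 467 at P0, a rise of 0.64 ± 0.13 (SE, adjusted p = 5.81e-04) that did not pass with all 13 plates in one fit (adjusted p = 0.0792). *Whrn* (whirlin), a scaffold of proprioceptors, had 2 UMIs in all at E14.5 and 26.9 and 32.7 UPM at P0, a ratio of 19.6 (95% interval 5.18 to 165, counting error alone). It was close to undetected at E14.5. *Isl1*, a factor of all DRG neurons, fell from 745 and 539.5 to 332 and 289 UPM (−1.11 ± 0.15, lowest barcodes −0.56 with adjusted p = 0.0165). *Pou4f1* (Brn3a), a factor of sensory neurons and a barcode gene, fell from 1144 and 898 to 104 and 65.3 UPM (−3.62 ± 0.18, lowest barcodes −3.10). The E14.5 levels of *Isl1* and *Pou4f1* differed more between plates than those of *Ntrk3*, without reaching the P0 levels.

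Transcription factors of sensory neurons mostly stood higher at E14.5. In that list, 3 of the 32 genes tested were called higher at P0 and 19 lower (0 and 6 of these kept without each plate in turn), with a median of −1.12. In the lowest 32 barcodes 2 of 22 tested were higher and 11 lower, with a median of −0.62. *Ebf1*, an early B-cell factor of differentiating neurons, fell from 488 and 469 to 192 and 150 UPM (−1.54 ± 0.15, SE, adjusted p = 6.40e-08). *Cux2*, a homeobox factor and barcode gene, fell by 3.66 (lowest barcodes −2.34). *Id2*, an inhibitor of helix-loop-helix factors, fell by 1.13 (adjusted p = 0.0516 without E14.5 replicate 2, and a difference of −0.56 with adjusted p = 0.251 in the lowest 32 barcodes) and the helix-loop-helix gene *Nhlh2* by 3.04 (adjusted p = 0.0562 without E14.5 replicate 1). *Pou4f3* was among the 3 genes called higher, at 25.4 and 26.9 UPM at E14.5 and 66.9 and 64.1 at P0 (1.25 ± 0.28), but not without E14.5 replicate 2 (adjusted p = 0.0520). With all kept neurons of both stages the *Pou4f3* difference was −0.24 (adjusted p = 0.377), and without P0 cluster 2 it was 0.21 (adjusted p = 0.665), so its direction depended on which clusters were compared. Of 9 Hox genes tested, which mark position along the body, 4 were called lower and none higher, and none of the 4 calls held without each plate. *Hoxc8* fell by 1.24 (adjusted p = 0.0824 without E14.5 replicate 2).

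The cytoskeleton changed its members. Besides *Nefh*, the light neurofilament gene *Nefl* rose from 1607 and 1512 to 4982 and 5328 UPM, by 1.66 ± 0.11 (SE, adjusted p = 3.31e-10). The medium chain gene *Nefm*, at 3373 and 3505 UPM at E14.5 and 4872 and 5511 at P0, rose by 0.53, a call lost without either E14.5 plate (adjusted p = 0.0556 and 0.0556). *Vim*, the vimentin of immature cells, fell from 117 and 129 to 22.8 and 33.9 UPM (−2.22 ± 0.25). *Ina*, the internexin gene, was lower at P0 (−0.48), a call that did not hold without each plate (adjusted p up to 0.314), and *Prph*, the peripherin gene, was not called (−0.04). Of the intermediate filament genes, 3 of the 6 genes tested were called higher at P0 and 2 lower (2 and 1 of these kept without each plate in turn). Among tubulin isotypes, 5 of the 10 genes tested were called higher at P0 and 1 lower (4 and 1 of these kept without each plate in turn). *Tubb2a* rose by 1.14, *Tubb4b* by 1.14 (adjusted p = 0.0582 with all 13 plates in one fit) and *Tuba1b* by 0.96, while *Tubb5*, a barcode gene, fell by 1.39 (lowest barcodes −0.73). *Tuba8* had no UMI at E14.5 and 78.3 and 95.5 UPM at P0, at least 38-fold higher (floor of 3 UMIs over the stage).

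Among axon growth and growth cone genes, more were called lower than higher. In that list, 7 of the 39 genes tested were called higher at P0 and 14 lower (4 and 11 of these kept without each plate in turn). In the lowest 32 barcodes 4 of 37 tested were higher and 12 lower. *Stmn1*, a microtubule destabiliser, fell from 814 and 804 to 62.0 and 75 UPM (−3.64 ± 0.16, SE, adjusted p = 4.85e-13). *Dcx* (doublecortin), a microtubule protein of young neurons, fell from 208 and 256 to 39.1 and 44.7 UPM (−2.54 ± 0.21). *Tmsb10*, an actin-sequestering thymosin, went from 26787 and 28967 to 10808 and 12869 UPM (−1.30 ± 0.12). These 3 were not barcode genes, and no plate of one stage reached the level of the other. *Dpysl2* (CRMP2), a barcode gene, fell by 2.39 (lowest barcodes −2.58), but not with all 13 plates in one fit (adjusted p = 0.0849).

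*Gap43*, the growth-associated protein of extending axons, was at 2281 and 2088 UPM at E14.5 and 1221 and 1333 at P0, a fall of 0.84 ± 0.11. As a count, *Gap43* gave 1525 and 1397 UMIs from 55 and 74 neurons at E14.5 and 1497 and 1102 from 27 and 20 neurons at P0. Its share of RNA fell, while its UMIs per neuron were higher at P0. With all 13 plates in one fit the call was lost (adjusted p = 0.121). *Ncam1* fell by 1.00, *Dclk1* by 1.01 (lowest barcodes −0.83, adjusted p = 0.0768) and *Map1b* by 0.61, and with all 13 plates in one fit the calls of *Dclk1* and *Map1b* were lost too (adjusted p = 0.0849 and 0.131). Other members rose, among them the stathmins *Stmn3* (1.35) and *Stmn2* (0.50) and the reticulon *Rtn1* (0.98).

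Most genes of the synaptic vesicle and its release were higher at P0. There, 27 of the 38 genes tested were called higher at P0 and 4 lower (19 and 2 of these kept without each plate in turn), with a median of 1.17. In the lowest 32 barcodes 21 of 33 tested were higher and 4 lower. *Syt2*, the calcium sensor of fast release, rose from 12.0 and 17.9 to 166 and 168 UPM (3.40 ± 0.27, SE, adjusted p = 3.87e-09). *Slc17a7* (VGLUT1), the glutamate loader of proprioceptor terminals, rose from 7.48 and 5.98 to 69.3 and 68.9 UPM (3.27 ± 0.37, SE, adjusted p = 5.20e-07). *Cplx1* (complexin 1), a regulator of fusion, rose from 154 and 119.6 to 1087 and 1046 UPM (2.90 ± 0.15). In these genes the plates of one stage were close to each other and far from the other stage.

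The membrane fusion gene *Snap25* was already at 386 and 363 UPM at E14.5 and reached 1304 and 1195 (1.67). *Rab3a* rose by 1.71, *Sv2b* by 2.53 and *Syn1* by 1.94. *Slc17a6* (VGLUT2), at 58.3 and 68.8 UPM at E14.5 and 142 and 122 at P0, rose by 0.99, but not without either E14.5 plate (adjusted p = 0.0674 and 0.0570). *Syt1* rose by 0.96 (adjusted p = 0.0623 without E14.5 replicate 2). *Sncg*, the γ-synuclein gene, fell by 0.53, unlike its relative *Sncb*, but not with all 13 plates in one fit (adjusted p = 0.266).

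Sodium channel genes moved in both directions. *Scn1a* (Nav1.1), which carries fast sodium current in large sensory neurons, rose from 20.9 and 12.0 to 193 and 189 UPM (3.46 ± 0.27, SE, adjusted p = 1.93e-09). *Scn8a* (Nav1.6), the channel of mature nodes of Ranvier, was at 25.4 and 22.4 UPM at E14.5 and 75.8 and 100.4 at P0 (1.79, adjusted p = 0.0645 without E14.5 replicate 2). *Scn3a* (Nav1.3), the embryonic channel, was at 74.8 and 58.3 UPM at E14.5 and 26.9 and 16.9 at P0 (−1.62, adjusted p = 0.0659 and 0.0555 without either E14.5 plate). The channel-binding factor *Fgf12* rose by 1.81 and its relative *Fgf13* fell by 1.35. In all, 5 of the 11 genes tested were called higher at P0 and 3 lower (3 and 1 of these kept without each plate in turn).

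Potassium and Hcn channel genes were called in 1 direction. Of that list, 15 of the 27 genes tested were called higher at P0 and 0 lower (8 and 0 of these kept without each plate in turn), with a median of 1.16 and 8 of 10 higher in the lowest 32 barcodes. *Kcna2* (Kv1.2), a brake on repetitive firing, rose from 7.48 and 2.99 to 44.0 and 53.2 UPM (3.10 ± 0.46, SE, adjusted p = 1.56e-05). *Kcnk1*, a two-pore leak channel, rose from 4.49 and 1.49 to 62.0 and 66.5 UPM (4.29 ± 0.47). *Kcnq3*, an M-current subunit, had 3 UMIs in all at E14.5 and 63.6 and 60.5 UPM at P0, a ratio of 27.8 (95% interval 9.30 to 137, counting error alone). The P0 plates lay above both E14.5 plates for all 3. *Kcns1* (2.46), *Hcn2* (2.66), *Dpp6* (1.92) and *Kcnh2* (1.88) also rose.

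Of the voltage-gated calcium channel genes, 4 of 10 were called, all lower at P0, and none of these calls held without each plate. *Cacng4*, an AMPA receptor regulatory subunit, had 25.4 and 31.4 UPM at E14.5 and 1 UMI in all at P0. The ratio was 58.3 (95% interval 9.86 to 2364, counting error alone), and the adjusted p without E14.5 replicate 2 was 0.0504. *Atp1b1*, a β subunit gene of the sodium pump, rose from 46.4 and 77.7 to 399 and 427 UPM (2.66 ± 0.20, SE, adjusted p = 1.53e-09), with the pump regulator *Fxyd7* (1.75). In that list of pumps and chloride transporters, 4 of the 10 genes tested were called higher at P0 and 4 lower (3 and 1 of these kept without each plate in turn). For ligand-gated receptors, 4 of the 14 genes tested were called higher at P0 and 3 lower (1 and 0 of these kept without each plate in turn). The glycine receptor β subunit gene *Glrb* rose by 2.89. The ATP receptor gene *P2rx3*, better known from nociceptors, fell from 43.4 and 28.4 to 8.97 and 6.05 UPM (−2.26, adjusted p = 0.0583 without E14.5 replicate 1).

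*Piezo2*, the principal mechanotransduction channel of proprioceptors, was at 153 and 232 UPM at E14.5 and 267 and 252 at P0. The difference of 0.36 ± 0.18 did not pass the test (adjusted p = 0.106), and the higher E14.5 plate lay close to the P0 plates. The acid-sensing channel gene *Asic3* rose from 12.0 and 14.9 to 68.5 and 60.5 UPM (2.19 ± 0.33, SE, adjusted p = 1.56e-05) and *Asic1* rose by 1.20 (adjusted p = 0.0541 without E14.5 replicate 2). *Tmem87a* fell by 1.30. In the list of mechanosensory channels, 6 of the 9 genes tested were called higher at P0 and 1 lower (1 and 1 of these kept without each plate in turn).

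Among the genes for calcium-binding proteins, 12 of the 21 genes tested were called higher at P0 and 2 lower (7 and 0 of these kept without each plate in turn). *S100a13* had 2 UMIs in all at E14.5 and 49.7 and 61.7 UPM at P0, a ratio of 36.5 (95% interval 9.87 to 305, counting error alone). *Camk2n2*, an inhibitor of CaM kinase II, rose by 2.83, *Ncald* by 1.78 and the calmodulin gene *Calm3* by 0.99. *Calb1*, at −0.05, was not called.

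Genes of the node and paranode, where myelin meets the axon, were called in both directions. *Cntnap1* (Caspr), the paranodal adhesion protein, rose from 8.98 and 7.47 to 128 and 88.3 UPM (3.65 ± 0.35, SE, adjusted p = 4.54e-08). *Lgi3*, a secreted ligand of axonal channel complexes, rose from 8.98 and 7.47 to 117 and 135 UPM (3.84 ± 0.32). *Ank3* (ankyrin G), the organiser of nodes, fell from 353 and 420 to 147 and 179 UPM (−1.33 ± 0.16), and *Sptbn1*, a β spectrin and barcode gene, fell by 1.91 (lowest barcodes −0.97). In this list, 7 of the 14 genes tested were called higher at P0 and 4 lower (3 and 2 of these kept without each plate in turn).

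Neurotrophic and guidance receptors showed no common direction. Of 10 neurotrophic factor receptor genes 4 were called higher and 4 lower, 1 of each without each plate in turn. *Lifr*, the LIF receptor gene, fell from 136 and 130 to 53.0 and 49.6 UPM (−1.44), and *Gfra4*, a GDNF family receptor gene, rose by 2.57 (adjusted p = 0.0555 and 0.0542 without either E14.5 plate). Of the axon guidance genes, 5 of the 26 genes tested were called higher at P0 and 9 lower (2 and 2 of these kept without each plate in turn). In the lowest 32 barcodes 2 of 10 tested were higher and 5 lower. *Draxin*, a repulsive guidance protein gene, fell from 37.4 and 26.9 to 2.45 and 3.63 UPM (−3.46) and the ephrin gene *Efna5* by 1.72 (adjusted p = 0.0748 with all 13 plates in one fit), while the plexin gene *Plxna2* rose by 1.74 and the barcode gene *Slit2* by 1.49 (lowest barcodes 1.88). *Plxnb1* fell by 4.26 (adjusted p = 0.0679 and 0.0525 without either E14.5 plate).

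**Figure D3:**
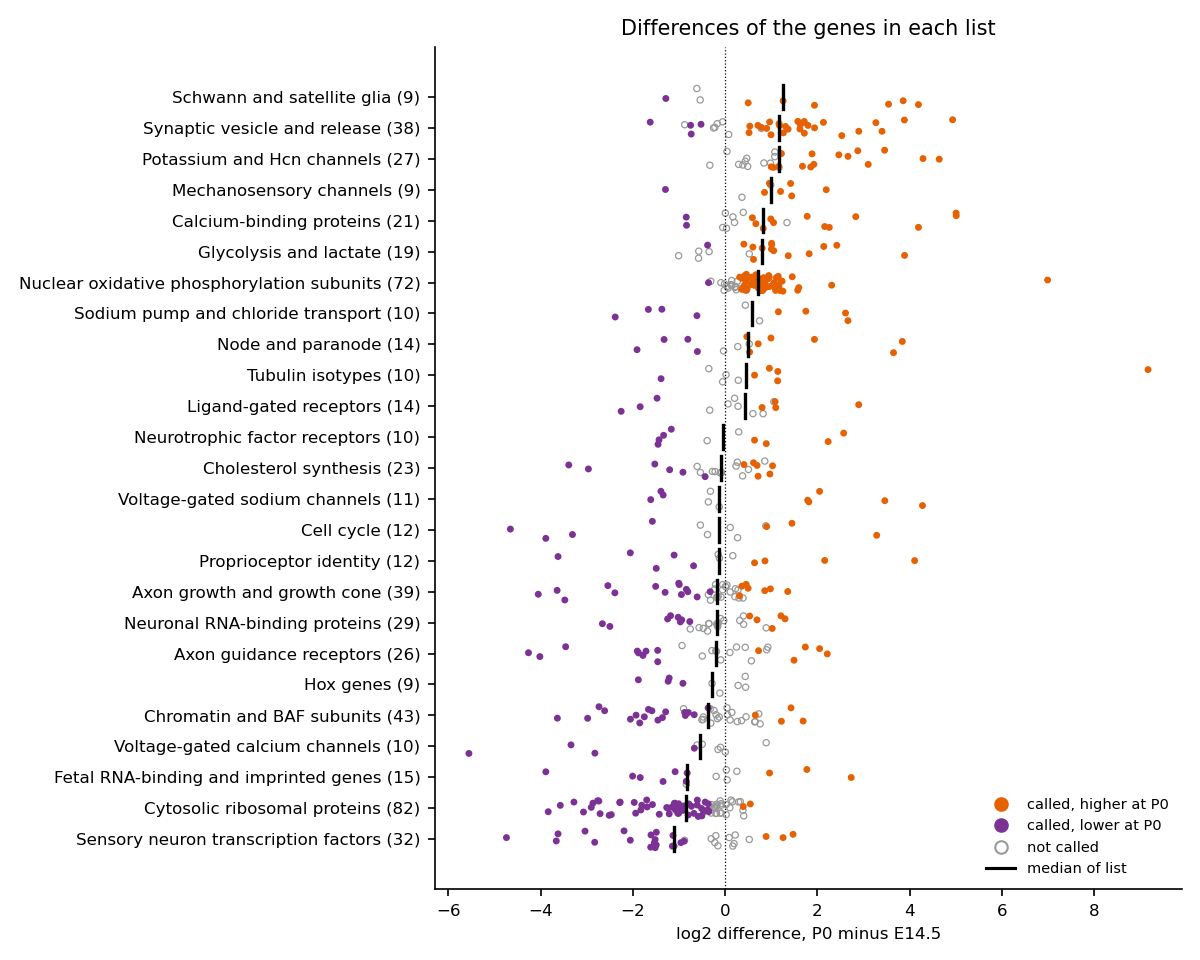
log2 difference, P0 minus E14.5, of each gene tested in 25 gene lists, ordered by the list's median (black bar, number of genes tested in parentheses). Potassium channel, synaptic and oxidative phosphorylation genes lie mostly to the right, and ribosomal protein, chromatin and transcription factor genes to the left. Fitted values of genes with no UMI at E14.5 (the points furthest right, *Tuba8* and *Cox6a2*) depend on the prior count.

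More chromatin genes were called lower at P0 than higher, while for fetal and imprinted genes the counts differed between the main fit and the fits by barcode. Of the fetal RNA-binding and imprinted genes, 3 of the 15 genes tested were called higher at P0 and 7 lower (2 and 3 of these kept without each plate in turn). The median of −0.82 was −0.0017 in the lowest 32 barcodes, where 2 of 8 tested were higher and 3 lower, and in the highest 32 barcodes 3 of 8 were higher and 2 lower (median −0.28). None of the 15 is a barcode gene. The barcodes and the genes tested changed together, so their parts in these medians cannot be told apart. The imprinted transcript *Rian* fell by 2.01 and *Nnat* (neuronatin) by 1.09 (adjusted p = 0.0683 in the highest 32 barcodes), while *Peg3* rose by 1.77 and *Snrpn* from 1874 and 1713 to 3658 and 3658 UPM (0.96), so imprinted genes went both ways. Of the chromatin genes, 4 of the 43 genes tested were called higher at P0 and 18 lower (0 and 7 of these kept without each plate in turn), with a median of −0.37. Among neurons of the lowest 32 barcodes 0 of 28 tested were higher and 11 lower, with a median of −0.61. *Hmgn2*, a nucleosome-binding protein gene, fell from 384 and 366 to 44.0 and 56.8 UPM (−2.98 ± 0.19, SE, adjusted p = 7.93e-11). The histone H3.3 genes *H3f3a* and *H3f3b* fell by 3.64 and 1.46, and *Hmgb1* by 1.93. Such genes have many pseudogenes. Of the neuronal RNA-binding protein genes 5 of 29 were called higher and 8 lower, none of which held without each plate. *Celf5* fell by 2.66 (adjusted p = 0.0512 without E14.5 replicate 1).

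Few cell cycle genes passed the filter on low counts, 12 of 36. *Cdkn1a* (p21), the cyclin-dependent kinase inhibitor gene, rose from 64.3 and 46.3 to 582 and 548 UPM (3.28 ± 0.18, SE, adjusted p = 1.32e-11), opposite to *Cdkn1c*. *Cenpf*, a mitotic centromere protein gene, was at 145 and 25.4 UPM at E14.5, with a large gap between the plates, and at 5.71 and 0 at P0. Its call was lost without E14.5 replicate 1 (adjusted p = 0.138). Of the immediate early and stress genes, 5 of the 14 genes tested were called higher at P0 and 1 lower (2 and 1 of these kept without each plate in turn). The lower call was *Sox11*, described above as a factor of immature neurons, and no other gene of that list was called lower. *Hsp90aa1*, a chaperone gene, was at 599.9 and 619 UPM at E14.5 and 956 and 979.6 at P0 (0.60), a call lost with all 13 plates in one fit (adjusted p = 0.0853) and with thinned neurons (adjusted p = 0.0611).

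Most genes of energy metabolism were higher at P0. Of the nuclear genes for oxidative phosphorylation subunits, 57 of the 72 genes tested were called higher at P0 and 1 lower (41 and 0 of these kept without each plate in turn), with a median of 0.71 log2. In the lowest 32 barcodes 40 of 68 were higher and 2 lower. Their summed share was 5.84% and 6.30% of UMIs at E14.5 and 9.26% and 9.38% at P0. The share of the mitochondrial genome's transcripts went from 1.6% and 1.83% to 2.92% and 2.91%. *Cyc1*, a complex III subunit gene, rose from 349 and 221 to 922 and 877 UPM (1.59 ± 0.16), *Atp5d* of ATP synthase by 1.45 and *Sdhd* of complex II by 1.25. *Cox6a2*, the heart and muscle isoform of a complex IV subunit, had no UMI at E14.5 and 20.4 and 16.9 UPM at P0, at least 8.47-fold higher, a call lost without P0 replicate 1, where it fell below the filter on low counts.

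Of glycolysis and lactate genes, 13 of the 19 genes tested were called higher at P0 and 1 lower (9 and 0 of these kept without each plate in turn), and their summed share went from 0.543% and 0.507% to 1.04% and 0.968%. *Ldhb*, the lactate dehydrogenase of oxidative tissue, rose by 2.14 ± 0.12 (SE, adjusted p = 3.30e-11), to 1731 and 1582 UPM, and *Ldha* by 1.82. The neuronal enolase gene *Eno2* rose from 56.8 and 64.3 to 393 and 283 UPM (2.42), *Hk1* by 1.37 and *Aldoa* by 0.80. *Eno1* was the gene of this list called lower (−0.38), a call that did not hold without each plate (adjusted p up to 0.186).

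Ribosomal protein genes fell in number, 55 of 82 called lower and 2 higher (30 and 0 without each plate in turn), and 49 of 76 lower and 0 higher among neurons of the lowest 32 barcodes. Their summed share went from 4.01% and 4.18% to 2.63% and 2.76%. *Rpl3* fell from 341 and 359 to 41.6 and 46.0 UPM (−3.07), *Rps16* by 2.90 and *Rpl23a* by 3.28. Pseudogenes as a class were lower at P0 too, and reads cannot be assigned between gene and copy from the deposited values. In cholesterol synthesis 6 of 23 genes were called higher and 6 lower, of which 0 and 2 held without each plate in turn. Of the 6 lower calls 3 were barcode genes. In the lowest 32 barcodes 2 of 19 tested were higher and 5 lower, and in the highest 0 of 18 were higher and 6 lower. *Hmgcs1*, an early enzyme of the pathway and a barcode gene, fell from 2118 and 2479.6 to 329 and 285 UPM (−2.97, lowest barcodes −2.50).

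**Figure D4:**
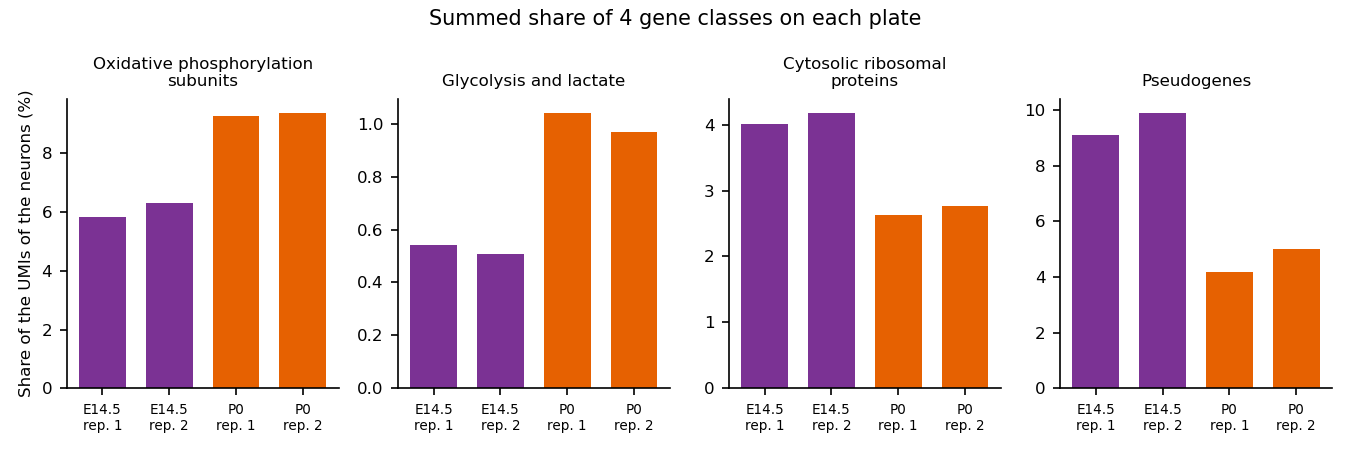
Share of the UMIs of a plate's neurons (%, axis from 0 in each panel) held by 4 classes of genes on the 4 plates. Oxidative phosphorylation and glycolysis genes were higher on both P0 plates, ribosomal protein genes and pseudogenes higher on both E14.5 plates.

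Markers of other cells were low in these neurons. The study had removed wells high in satellite cell markers such as *Apoe*, which were thus part of the choice of neurons. The summed glial list held 0.0518% and 0.0505% of UMIs at E14.5 and 0.0935% and 0.115% at P0, and 9 of its 30 genes passed the filter. Of those, 6 were called higher at P0 and 1 lower, and the rise of *S100b* alone held without each plate. *Apoe*, at 7.48 and 0 UPM at E14.5 and 34.3 and 62.9 at P0, rose by 3.54 (adjusted p = 0.0513 and 0.112 without either E14.5 plate). *Fabp7* had 2 UMIs in all at E14.5 and 26.1 and 23.0 UPM at P0, a ratio of 16.6 (95% interval 4.37 to 141, counting error alone), and its adjusted p without E14.5 replicate 2 was 0.0518. *Mbp* rose by 1.25 (adjusted p = 0.0413), a call lost without any 1 of the 4 plates. *Sox10*, a glial transcription factor, had no UMI at E14.5 (under 2.24 UPM) and 2 at P0. The part of glial RNA in the rises was not tested.

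Nociceptor and other sensory markers summed to 0.0260% and 0.0152% at E14.5 and 0.0166% and 0.0131% at P0. Markers of cutaneous mechanoreceptors summed to 0.0790% and 0.0835% at E14.5 and 0.0979% and 0.113% at P0, but these sums were mostly *Cux2* at E14.5 and *Nefh* at P0, both described above, and so say little about such cells. *Maf*, a barcode gene whose low level was among the grounds on which the study named the E14.5 clusters, had a UMI in 10 of 55 and 6 of 74 neurons at E14.5 and in 14 of 27 and 14 of 20 at P0. Its level, a difference of 0.52, was not called (adjusted p = 0.183), and the P0 neurons were deeper. The TrkB gene *Ntrk2* had 1 UMI at each stage. *Calca* had 2 UMIs, both at P0, and *Scn10a* none at either stage (under 2.24 and 1.46 UPM). No blood cell or fibroblast gene passed the filter on low counts. Of 5 sex-linked genes 1 was tested, *Eif2s3y*, which was called lower at P0 (−1.45, adjusted p = 0.00965). That call did not hold without each plate in turn, and the part of sex in the differences was not tested.

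Clusters 1 and 2 of each stage also differed in some of these genes. Since the authors drew the clusters from these very cells, the values are a description. *Pvalb* was at 562 and 724 UPM in E14.5 cluster 1 and 847 and 766 in cluster 2, and between 3168 and 3800 in the P0 clusters. *Nefh* was at 19.8 to 42.3 UPM in the E14.5 clusters and 720 to 922 in those at P0. E14.5 cluster 2 held more of the barcode genes *Pou4f1* (1318 and 1093 UPM, cluster 1 549 and 428) and *Cux2* (783 and 842, cluster 1 146 and 183). At P0, cluster 1 held more *Tnni1* (324 and 263 UPM, cluster 2 95.3 and 92.8), *Cdkn1a* (667 and 665, cluster 2 376 and 275) and *Crtac1* (114 and 88.1, cluster 2 22.4 and 8.07). P0 cluster 2 held more *Pou4f3* (151 and 141 UPM, cluster 1 32.2 and 31.1). Of genes that the study names for groups of proprioceptors, in the adult or at P0, 4 of the 12 genes tested were called higher at P0 and 3 lower (1 and 0 of these kept without each plate in turn). The lower calls were *Id1*, *Id2* and *Id3*, which it names for groups at P0. The rise of *Crtac1* between stages, 2.79, was lost without E14.5 replicate 2 (adjusted p = 0.0502).

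Neuron by neuron, *Pvalb* spanned 0 to 2828 UPM (median 509) and 0 to 3153 (median 539) on the E14.5 plates, and 2727 to 4627 (median 3670) and 2387 to 4871 (median 3565) at P0. The distributions met only at their edges. *Gap43* spanned 899 to 4227 and 1014 to 3480 UPM at E14.5 and 801 to 1622 and 722 to 1731 at P0, with wide overlap. *Tnni1* had a UMI in 4 of 129 neurons at E14.5 and in 27 of 27 and 18 of 20 at P0, where its level ran from 0 to 982 UPM. *Cdkn1a* had a UMI in 25 of 55 and 25 of 74 neurons at E14.5 and in every P0 neuron (43.6 to 1375 UPM). The deeper P0 neurons favour detection in these shares.

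The kept neurons of 4 P12 and 5 adult plates, of the same reporter line as P0, show where the levels went afterwards. *Nefh* continued upward, to means of 3399.8 UPM at P12 and 4837 in the adult, as did *Vamp1* (672 and 735), *Kcna2* (273 and 432) and *S100b* (2709 and 3911). Others were near their later levels at birth, such as *Cplx1* (1331 and 1210.4) and *Vsnl1* (876 and 671). *Pvalb* was at 3198 and 2038 UPM. A few rises were passing. *Tnni1* was at 11.5 UPM at P12 and 4.89 in the adult, and *Cdkn1a* at 30.4 and 3.29, both below their P0 levels on every later plate.

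*Gap43*, still above 1200 UPM on both P0 plates, was at 39.8 UPM at P12 and 5.28 in the adult. *Stmn1* went on to 8.47 and 2.50 UPM, *Dcx* to 0.185 and 0.195, and *Zfp57* to 0.371 and 0.0838. *Runx3*, at 28.9 and 36.9 UPM, stayed near its P0 level, and *Etv1*, at 522 and 424 UPM, was lower than at either earlier stage. *Ppm1h*, a barcode gene, was at 95.9 to 984 UPM on the adult plates. These comparisons were not tested here, and the adult plates carry the barcode feature unequally.

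**Figure D5:**
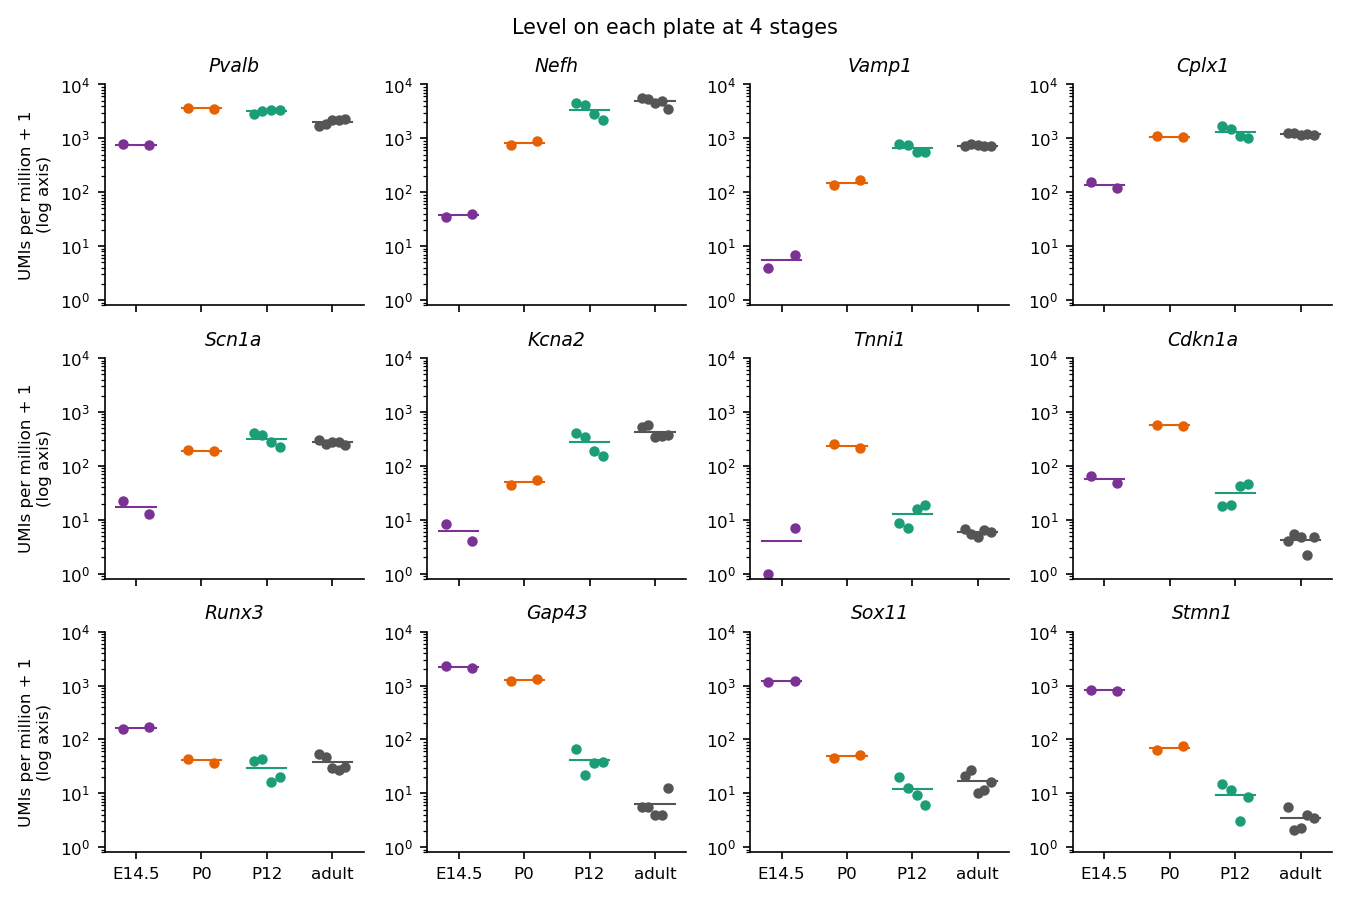
Level of 12 genes on each plate at E14.5, P0, P12 and in the adult, in UPM plus 1 (log axis), with horizontal lines at the mean of each stage. *Nefh* and *Vamp1* continue upward after P0, *Tnni1* and *Cdkn1a* are highest at P0, and *Gap43* falls mainly after P0.

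Promoters, the 300 bases from 250 before to 50 after the annotated start, were read for the protein-coding genes called in each direction from RefSeq (GRCm38.p6), where 81.5% of the 1841 genes higher at P0 and 81.0% of the 1248 lower had one. The 2 sets were close in composition, with a median GC content of 61.7% and 63.3%, against 61.7% for all protein-coding genes tested. The genomic span was 18.7 kb for genes higher at P0 and 29.5 kb for genes lower (24.1 kb for all tested). Searched on both strands, TATAAA was in 6.46% and 6.63% of promoters, CCAAT in 37.7% and 39.0%, and GGGCGG in 67.1% and 68.2%, near the shares of all tested (6.30%, 38.3% and 67.9%). ACTTCCGG was in 8.20% of those higher at P0, 6.23% of those lower and 9.44% of all tested (4.00% of all promoters in the table). The 3 promoters below are shown for a strong rise, for the marker that rose and for a strong fall outside the barcode genes, with any of 9 searched motifs in capitals (the TATA box TATAAA, the CCAAT box, the GC box GGGCGG, the cAMP response element TGACGTCA, the E-boxes CACGTG and CAGCTG, the E2F motifs TTTGGCGC and TTTCGCGC, and the ETS motif ACTTCCGG). *Vamp1* (chr6:125215331-125215630, plus strand) has 3 CCAAT matches on the reverse strand and 1 GGGCGG. *Pvalb* (chr15:78206351-78206650, minus strand) has none of the 9. *Sox11* (chr12:27342669-27342968, minus strand) has 1 CCAAT, 2 GGGCGG and 1 CAGCTG. A match is only a description of the letters.
Vamp1: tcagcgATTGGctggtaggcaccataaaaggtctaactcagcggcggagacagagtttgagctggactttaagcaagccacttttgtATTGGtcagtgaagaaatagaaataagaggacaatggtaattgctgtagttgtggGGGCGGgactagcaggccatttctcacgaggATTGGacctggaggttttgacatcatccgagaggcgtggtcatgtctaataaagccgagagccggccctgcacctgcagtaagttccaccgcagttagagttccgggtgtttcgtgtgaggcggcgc
Pvalb: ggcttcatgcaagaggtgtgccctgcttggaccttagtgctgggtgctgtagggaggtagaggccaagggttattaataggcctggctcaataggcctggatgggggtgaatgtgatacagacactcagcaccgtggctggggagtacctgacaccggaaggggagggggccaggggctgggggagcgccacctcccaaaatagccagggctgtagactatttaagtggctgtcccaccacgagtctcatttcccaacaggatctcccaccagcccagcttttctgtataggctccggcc
Sox11: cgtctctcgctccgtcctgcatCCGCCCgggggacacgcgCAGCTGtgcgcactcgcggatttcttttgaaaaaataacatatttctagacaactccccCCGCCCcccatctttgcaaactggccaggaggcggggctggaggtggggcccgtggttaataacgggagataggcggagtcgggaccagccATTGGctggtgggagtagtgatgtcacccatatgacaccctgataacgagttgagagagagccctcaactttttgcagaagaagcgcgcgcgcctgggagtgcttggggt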

How the data were processed

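Single neurons of 13 plates had been sequenced by Plate-seq. The deposited values are whole-number UMI counts per gene and well (50508 genes), not normalized. The authors aligned reads to mm10 (GRCm38) with STAR and the NCBI annotation, assigned them to wells through the barcode and counted each UMI a single time. Wells with few genes or high in satellite cell genes had been removed by the authors, and doublets were not treated further. Stages came from the plate labels and clusters from the authors' annotation, and plates were numbered in the order listed. Counts were summed over the member neurons of each plate and compared by the quasi-likelihood test of edgeR 4.0.16 (R 4.3.3), after filterByExpr and with TMM factors. Genes with a Benjamini-Hochberg adjusted p below 0.05 are the called ones. Tested on simulated counts of 8386 genes for this comparison, the fit recovered 51% of 2-fold and 99% of 4-fold changes, with 3.23% of calls false. The simulation used pooled means, a common dispersion for every gene, independent plates and no filter. Only 100 genes changed at each fold. The data have many more calls and plates that may share animals, so 3.23% cannot be read as the false share of the calls here. Alternatives were another normalization, DESeq2 1.42.0, no filter, glmTreat, other sets of neurons or plates, thinning to 4000 UMIs and each plate left out. Fits in the lowest and highest 32 well barcodes, and without genes that differ over 2-fold between adult plates, were chosen after seeing the data.

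Named genes are the markers, members of gene lists with the largest differences or a defining role, and the 15 largest rises and falls. These rises and falls were taken among called genes of at least 100 UPM (UMIs scaled to a total of 1000000) whose call held without each plate. Their levels also did not overlap between stages, and predicted genes were skipped. Some genes that this rule names are not reported here. Members and lists were chosen with earlier results of these data known. A UMI ratio with under 4 UMIs at 1 stage carries a 95% interval for counting error. Tables and plots were made in Python 3.11.15 (pandas 2.3.3, matplotlib 3.10.9, scipy 1.17.1, numpy 2.4.6), and edgeR drew on limma 3.58.1.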

Additional observations from a re-analysis of the deposited data

How the results depend on the processing

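Of 4141 genes called (1966 higher and 2175 lower at P0), the counts stayed within 1.5 times, direction by direction, with DESeq2's size factors, library totals, no filter, all kept neurons, without E14.5 cluster 1, without P0 cluster 2, and without genes that differ over 2-fold between adult plates (3779, 1817 and 1962). Library totals turned the split to 50.5% higher of the calls, from 47.5%. The counts were smaller with the DESeq2 Wald test (2455, 1090 and 1365), with glmTreat over 2-fold (1493, 482 and 1011), without E14.5 cluster 2 (2562, 1249 and 1313), with neurons thinned to 4000 UMIs (1431, 652 and 779, of 3204 genes tested), in the lowest 32 barcodes (1891, 861 and 1030, of 4512 tested) and in the highest 32 (2138, 990 and 1148, of 4721 tested). With all 13 plates in one fit, 2859 genes were called (1559 higher) and 1300 lower. Thinning, the barcode subsets and glmTreat have fewer UMIs, fewer neurons or a stricter threshold. The cause of the smaller counts was not tested for any of these alternatives, the DESeq2 Wald test and all 13 plates included. Each of the calls shared with the first fit kept its direction in every alternative, for example 1819 in the lowest barcodes. Leaving out 1 plate gave 1234 to 3559 calls, 564 to 1722 higher and 670 to 1837 lower. Without E14.5 replicate 2 there were 1234 and without E14.5 replicate 1 there were 1958, against 3189 and 3559 without P0 replicates 1 and 2. The plate left alone is then assumed to vary like those of the other stage.

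Of the 145 named genes, the direction turned for *Etv1* with thinned neurons (−0.013, adjusted p = 0.960) and in the highest barcodes (−0.17), for *Piezo2* in the highest barcodes (−0.044), and for *Pou4f3* with all kept neurons (−0.24). *Etv1* and *Piezo2* were not called in the first fit. The glmTreat test lost 31 of their calls, all 13 plates in one fit 18 (with *Gap43*, *Ntrk3*, *Map1b*, *Dpysl2*, *Tubb4b*, *Efna5*, *Sncg* and *Hsp90aa1* among them), and DESeq2 5 (*Cenpf*, *Apoe*, *Mbp* and *Hoxc8* among them). With neurons thinned, the calls of *Ntrk3*, *Id2*, *Slc17a6*, *Asic1* and *Hsp90aa1* were lost, and without E14.5 cluster 2 those of *Id2*, *Dclk1* and *Hoxc8*. The share of neurons with a UMI, P0 minus E14.5, was 0 percentage points for *Etv1* and 3.61 after thinning, 7.88 for *Runx3* and −35.9 after thinning, and 5.66 for *Pvalb* and 17.0 after thinning. The sign for *Runx3* therefore turned with depth.

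No paired analysis was possible because the labels give no replicate numbers that plates of the 2 stages share. Depth differed with stage, 2 plates a stage leave few degrees of freedom, and the reporter line changed with the stage. Intervals cover counting error alone.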
